A study of Mus musculus with 3 samples.

Results

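The young neurons of the embryonic mouse cochlea were described from single-cell RNA sequencing of whole cochleae at embryonic day 15 (E15). A cell was taken as a neuron when it had at least 5 unique molecular identifiers (UMIs, each standing for 1 captured RNA molecule) of Tubb3, at least 2 of Stmn2 and at least 1 of Elavl3 and Elavl4 together. Of 6375 E15 cells with at least 500 genes and at most 20% of UMIs in mitochondrial genes, 187 met this rule: 81 of 2838 in replicate 1 and 106 of 3537 in replicate 2. The series holds 13637 such cells in all. Its 3 libraries come from wild-type C57BL/6J mice with no transgene or treatment, 2 at E15 and 1 at postnatal day 7 (P7). The cochleae were dissociated with papain and thermolysin and passed through a sorter to remove debris. The labels do not say how many animals or litters a library pools, so the spread between the E15 replicates may be technical.

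The neurons of the cochlea lie in the spiral ganglion and carry sound signals from hair cells to the brainstem. Their precursors leave the otic epithelium under the proneural factor Neurog1, which switches on Neurod1. Neurod1 is a basic helix-loop-helix transcription factor that is needed for the survival and differentiation of inner ear neurons and is lowered as they mature. Isl1, Pou4f1 and Gata3 are further transcription factors of these neurons, and Gata3 is needed for spiral ganglion neurons. Developing ganglion neurons depend on neurotrophins through the receptors Ntrk2 and Ntrk3, and extend axons with growth-associated proteins such as Gap43 and Dcx.

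The share of cells that met the rule was 2.85% in E15 replicate 1 (exact 95% interval 2.27 to 3.54) and 3.0% in replicate 2 (2.46 to 3.61), and these intervals overlap. The 2 E15 libraries hold 45066083 and 42866487 UMIs over the cells that passed the filters. The neurons had a median of 20106 and 15195 UMIs, above the medians of 14780.5 and 10889 over all cells. For cells that met the other parts of the rule, those 1 UMI short were 2 and 1 for Tubb3, 1 and 0 for Stmn2 and 0 and 1 for the Elavl genes, and 31 and 19 cells failed by Tubb3 alone at any distance. No neuron shared a barcode with a cell that met the neuron rule in another library, although the libraries share 3 to 6 barcodes in pairs.

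The label was checked against genes that the rule did not use. These are given without a test, since the rule chose the neurons on genes of the same cells. Isl1 was detected in 100% and 99.1% of the neurons of the 2 libraries, Gata3 in 95.1% and 97.2%, and Pou4f1 in 90.1% and 84%. Markers of other neurons were sparse but for 1. Of 27 measured markers of geniculate, vestibular, motor, autonomic and central neurons, 18 had no UMI in any of the 187 cells. Among them were Slc18a3 of cholinergic neurons and Gad1 of inhibitory neurons. The list summed to 156 and 123 CPM, of which P2rx3, an ATP-gated channel of several kinds of sensory neuron, made up 132 and 110.2. Of 12 hair cell genes, 4 had no UMI: Atoh1, Pou4f3, Gfi1 and Otof. Others were present, with Myo6 at 73.6 and 73.3 CPM and Cib2 at 61.2 and 62.1, and the list summed to 184 and 164 CPM in neurons against 108 and 104 in all other cells. A count of 0 limits the captured RNA and not the presence of the gene.

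Levels were set beside 2 other classes of the same libraries, 207 glial cells (chosen on UMIs of Sox10 and another glial marker) and 1024 mesenchymal cells with high collagen (at least 10 Col1a2 UMIs, no Sox10 or Epcam). The glial class also held melanocyte RNA, with 685 and 987 CPM of Dct. Levels are in CPM, for which the UMIs of all cells of a class in a library were added up and scaled to a common total. The kit tags 1 end of each RNA molecule, so CPM are not divided by gene length. RNA of other cells was low in the neurons. The summed level of 12 glial markers was 395 and 527 CPM in the neurons of the 2 libraries, against 8536 and 8813 in glial cells. The 10 mesenchymal markers summed to 109 and 139 CPM, against 4296 and 4574 in mesenchymal cells.

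**Figure D1:**
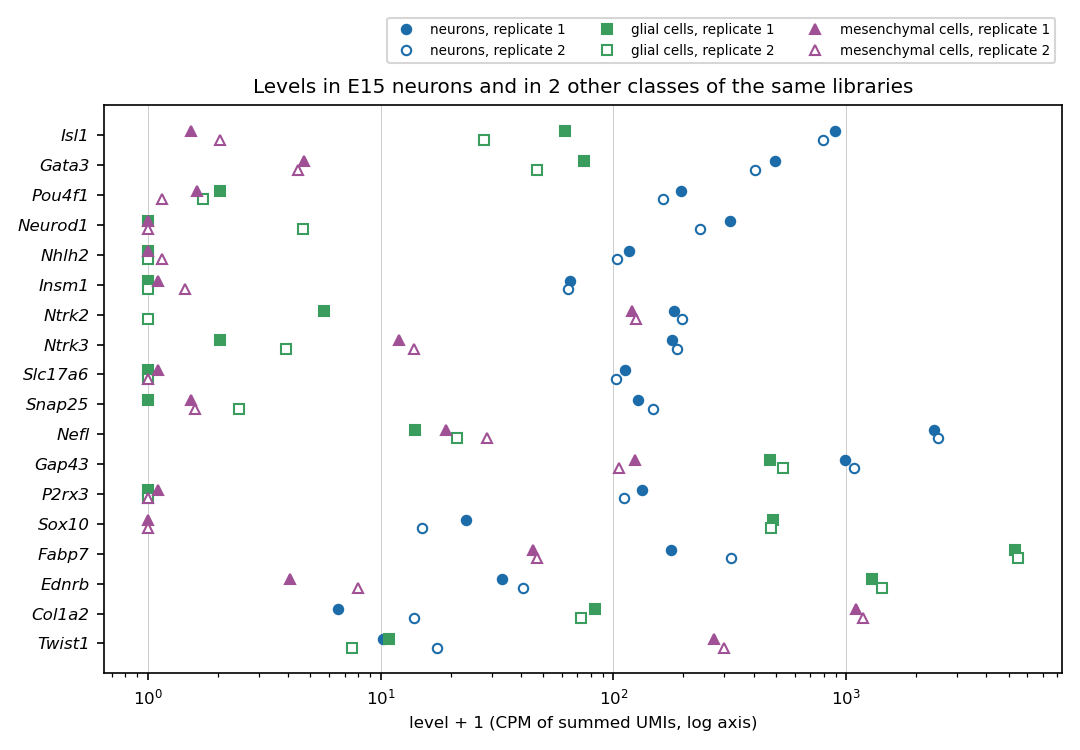
Levels of 18 genes (rows) in neurons, glial cells and mesenchymal cells of each E15 library, as CPM plus 1 on a log axis. Filled symbols are replicate 1 and open symbols replicate 2. The upper 13 genes sit highest in the neurons in both libraries, and the lower 5 in glial or mesenchymal cells.

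The neurons carried the transcription factors of a sensory ganglion. Isl1, a LIM homeodomain factor of sensory neurons, stood at 845 ± 74.8 CPM (mean ± SD, n = 2 libraries), against 61 and 26.9 CPM in glial and 0.53 and 1.05 in mesenchymal cells. Gata3 was at 451 ± 62.9 CPM in the neurons, with 73.5 and 45.9 in glial cells. Pou4f1, also known as Brn3a, was at 179 ± 22.9 CPM and at or below 1.04 CPM in both other classes. The rule's own gene Neurod1, which it used to divide the neurons, was at 317 and 235 CPM. Neurog1, which acts before Neurod1, had 1 UMI in the neurons of both libraries together. Sox11 and Ebf1, factors of immature neurons, reached 1116 ± 10.0 and 1229 ± 55.6 CPM, but both were also seen in mesenchymal cells (337 and 336 CPM of Sox11, 736 and 666 of Ebf1). Of the 39 factors listed, 33 reached 10 CPM in the neurons of both libraries.

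The 42 axon genes summed to 48884 and 52860.2 CPM in the neurons of the 2 libraries, against 7082 and 7676 in glial cells. Tuba1a, an alpha-tubulin of growing axons, stood at 8758 and 10862 CPM in the neurons of the 2 libraries, and Stmn1, a tubulin-binding protein, at 7024 and 7635. The light and medium neurofilaments were present (Nefl 2432 ± 80.5 CPM, Nefm 3379.6 ± 67 CPM), while the heavy chain Nefh, which is added to mature axons, was at 30.4 ± 0.134 CPM. Gap43 was at 1031 ± 67.2 CPM, and the glial cells of the same libraries held 468 and 535. Among receptors that steer axons, the ephrin receptor Epha5 stood at 981 ± 115 CPM, against 40.7 and 67 in glial cells.

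Both neurotrophin receptors of the spiral ganglion were present in most neurons. Ntrk2, the receptor of BDNF, was at 188 ± 11.2 CPM and detected in 84% and 78.3% of the neurons. Ntrk3, the receptor of NT-3, was at 182 ± 6.77 CPM and detected in 86.4% and 84.9%. The neurons also held ligands. Shh, a secreted morphogen that spiral ganglion neurons send to the cochlear duct, was at 51.5 ± 1.51 CPM, with no UMI in glial or mesenchymal cells. Fgf10 was at 133 ± 3.72 CPM and Nrg1, a signal to Schwann cell precursors, at 125 ± 7.24.

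Genes of transmission were detected too. Slc17a6, the vesicular glutamate transporter VGLUT2, was at 106 ± 6.98 CPM in the neurons. Slc17a7, VGLUT1, was at 7.42 and 5.86 CPM. The release protein Snap25 stood at 137 ± 14 CPM, and P2rx3 at 121 ± 15.6. The calcium channel Cacna1e was at 202 ± 7.17 CPM and the sodium channel Scn9a at 173 ± 3.09.

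By size of the gap to the other classes, the 20 genes that led included Shox2, Chgb, Elavl3, P2rx3, Ppp1r1c, Ina, Srrm4, Slc17a6, Elavl4, Pou4f1, Igfbpl1, Nhlh2, Nefl, Pcsk1n, Spp1, Stmn2, Tubb3 and Stmn4. Of the 20, 4 are genes of the rule. Shox2, a homeobox factor, was at 394 and 393 CPM in the neurons and at most 1.46 CPM in the other classes, and 90.5% and 95.9% of all its UMIs in the libraries lay in neurons. Srrm4, a splicing regulator of neural microexons, was at 162 ± 4.57 CPM. Of 20 genes of neuronal RNA binding and splicing, 18 reached 10 CPM in both libraries. Elavl2, a relative of the rule's Elavl genes, was at 359 ± 8.83 CPM and Celf3 at 135 ± 6.36, against 0.212 and 0.15 CPM of Celf3 in mesenchymal cells. Ptbp1, a repressor of neural exons, went the other way, at 24 ± 1.65 CPM in neurons against 118 and 98.3 in glial cells.

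Genes of secretory granules were present as well. Chgb, a granin, was at 348 ± 21.2 CPM, and Pcsk1n at 749.6 ± 34.4. The neuropeptide genes Tac1 and Npy were each found in under 6% of neurons, with Npy at 14.8 and 38.1 CPM in neurons and 869 and 1075 in glial cells. Genes that mark subtypes of adult spiral ganglion neurons were seen in part. Lypd1, a marker of type IC neurons, was at 206 ± 15 CPM in 55.6% and 50.9% of the neurons, and Calb1 at 173 ± 25.8 CPM in 70.4% and 67%. Calb2, the calretinin gene of type IA neurons, had 3 UMIs in replicate 1 and none in replicate 2.

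The neurons of the 2 libraries were alike. Across genes their log levels correlated with r = 0.978, which is a description over genes of 2 libraries. With at least 100 CPM in 1 library as the minimum, Hist1h1b, a histone gene of dividing cells, was the only named gene that differed 3-fold or more, at 25.4 against 121 CPM. Single cells held 39% and 35% of its neuron UMIs. Cell cycle RNA was scarce. After each cell was thinned to 5000 UMIs, 38.5% and 34.3% of neurons had at least 2 UMIs of a list of 21 cell cycle genes, against 85.6% and 87.0% of the other E15 cells. Mki67, a marker of proliferating cells, was detected in 7.41% and 11.3% of the neurons. Predicted doublets, 4 and 9 of the neurons, held 14 of the 19 Mki67 UMIs in replicate 1 and 50 of the 56 in replicate 2. Among the neurons that were not predicted doublets, 4 of 77 and 6 of 97 had an Mki67 UMI.

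Neurod1 divided the neurons. At least 1 Neurod1 UMI was found in 43 of 81 neurons of replicate 1 (53.1%, exact interval 41.7 to 64.3) and in 71 of 106 of replicate 2 (67.0%, 57.2 to 75.8). The median was 1 UMI in both libraries, and the highest cells had 50 and 33. After thinning to 5000 UMIs the shares were 42.3% and 43.4%, with 3 and 7 shallower neurons left out. The RNA lay almost wholly in neurons: 91.6% and 96.6% of all Neurod1 UMIs of the libraries were in them. Among mesenchymal cells, which should lack the gene, 0 of 553 and 0 of 471 had a Neurod1 UMI. Neurons with and without Neurod1 had similar depth, with medians of 18422 and 22371 UMIs in replicate 1 and 14930 and 16962 in replicate 2. A cell without a Neurod1 UMI may still hold Neurod1 RNA that was not captured.

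UMIs were summed per library over neurons with and without Neurod1, and the 4 sums were compared gene by gene in edgeR (quasi-likelihood fit, library as a block). Of 8335 genes tested, 797 (9.56%) passed an adjusted p under 0.05: 430 were higher in neurons with Neurod1 (5.16%) and 367 lower (4.4%). Of the 797, 790 had the same direction in each library alone. They were chosen by a fit to these same 2 libraries, so this is not independent support. DESeq2 on the same 4 sums called 71 genes (0.852%), all of them among the 797, so the count depends on the tool. It gave no adjusted p for 4204 genes, which count here as not called. In the edgeR fit the spread was pooled over all genes and a gene's own spread had no weight. DESeq2 is named where it passed a gene as well. The levels of the 2 groups did not overlap between the libraries for 47.5% of the genes tested, so such a gap alone is common.

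Ppp1r17 and Nhlh1 were among the genes higher with Neurod1. Ppp1r17, a regulator of protein phosphatases, stood at 153 against 0 CPM in replicate 1 and 93.3 against 1.72 in replicate 2 (log2 change 7.14, SE 0.49, edgeR adjusted p = 6.9e-45). Neurons without Neurod1 held 1 of its UMIs in all, so the SE does not give the precision of this fold. The change was 7.35 in replicate 1 alone and 5.15 in replicate 2 alone. Nhlh1, a basic helix-loop-helix factor of newly formed neurons, stood at 127 against 6.41 CPM in replicate 1 and 78.2 against 5.17 in replicate 2 (log2 change 4.11, SE 0.35, edgeR adjusted p = 2.3e-29). Both passed in DESeq2 too. The rule for naming also gave S100a13, Nuak1, Necab2 and Nedd1, with log2 changes of 3.66, 2.63, 2.35 and 2.33, which passed in both tools. It gave Mfap4, Ppp1r14a, Btbd17 and Grin3a (4.22, 3.29, 3.04 and 2.77), which passed in edgeR alone. Several of these rested more on 1 library. Mfap4 was at 6.41 in replicate 1 alone and 2.74 in replicate 2 alone, Ppp1r14a at 4.65 in replicate 1 alone and 2.24 in replicate 2 alone, Btbd17 at 3.74 in replicate 1 alone and 2.15 in replicate 2 alone and Necab2 at 3.28 in replicate 1 alone and 1.62 in replicate 2 alone.

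Of the 39 differentiation factors, 35 were tested, 18 were higher in neurons with Neurod1 and 5 lower. Among all genes tested, 5.16% were higher and 4.4% lower. The median log2 change of the factors was 0.39, against -0.01 over all genes tested. Isl1 stood at 1229.9 against 542 CPM in replicate 1 and 995 against 399 in replicate 2 (log2 change 1.22, SE 0.10, edgeR adjusted p = 1.0e-32). Zeb2, a zinc finger factor, stood at 281 against 67.9 CPM in replicate 1 and 221 against 84.4 in replicate 2 (log2 change 1.72, SE 0.17, edgeR adjusted p = 1.7e-21). Both passed in DESeq2. Insm1, a zinc finger factor of newborn neurons, was at 96.8 against 29.5 CPM in replicate 1 and 82.7 against 24.1 in replicate 2 (log2 change 1.71, edgeR adjusted p = 1.1e-09, DESeq2 adjusted p = 0.077). Neurod2 and Neurod6, relatives of Neurod1, were also higher. Neurod2 was at 27.5 against 0 CPM in replicate 1 and 16.9 against 0 in replicate 2, and Neurod6 at 35.9 against 3.84 CPM in replicate 1 and 26.7 against 0 in replicate 2. Pou4f1 did not pass (202 against 187 CPM in replicate 1 and 177 against 134 in replicate 2, edgeR adjusted p = 0.46), nor did Runx1 (-0.19 on the log2 scale). Gata3 was slightly lower in neurons with Neurod1 (-0.33, edgeR adjusted p = 0.033) and did not pass in DESeq2.

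Genes of the Notch pathway and cell cycle exit were higher with Neurod1 in 4 of 11 tested, and none was lower. Over all genes tested, 5.16% were higher and 4.4% lower. Gadd45g, a growth arrest gene, stood at 105 against 20.5 CPM in replicate 1 and 62.2 against 18.9 in replicate 2 and passed in both tools (log2 change 2.08, SE 0.27, edgeR adjusted p = 5.3e-12). Mfng, a modifier of Notch receptors, stood at 41.8 against 0 CPM in replicate 1 and 38.2 against 1.72 in replicate 2. Btg1 and Btg2, antiproliferative genes, had log2 changes of 0.48 and 1.54, with Btg2 at 2.14 in replicate 1 alone and 0.81 in replicate 2 alone. Of 15 cell cycle genes tested, 4 were lower with Neurod1 and none higher: Cenpf (-1.81), Birc5 (-1.48), Ube2c (-1.25) and Hmgb2 (-0.53). Hmgb2 did not pass in DESeq2, which gave no adjusted p for the other 3, and was at 0.13 without predicted doublets. Without predicted doublets, or without neurons holding glial or mesenchymal UMIs, 5 cell cycle genes had enough UMIs to be tested and none was called, and Cenpf, Birc5 and Ube2c were not among the 5. Birc5 was at -2.55 in replicate 1 alone and -1.08 in replicate 2 alone, and Ube2c at -2.60 in replicate 1 alone and -0.85 in replicate 2 alone. In addition, 1 cell of replicate 1 held 73.9% of the Birc5 UMIs of its neurons.

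Growth cone and microtubule genes were higher with Neurod1 in 13 of 41 tested and lower in 4, where 5.16% and 4.4% of all genes tested were. Gap43 stood at 1455 against 479 CPM in replicate 1 and 1354 against 546 in replicate 2 (log2 change 1.44, SE 0.09, edgeR adjusted p = 3.0e-49). The tubulins Tuba1a and Tubb2b differed less (0.35 and 0.44 on the log2 scale), as did Map1b (0.47) and the membrane protein Basp1 (0.54). These 5 also passed in DESeq2. Dcx, Nefm and Ina did not pass, with log2 changes of 0.13, -0.00 and 0.03. Nefl was slightly lower (-0.25, edgeR adjusted p = 0.011). Among 28 guidance genes tested, 6 were higher and 2 lower, the latter near the 4.4% of all genes. Epha5 was higher (0.69) and Sema3e, a secreted semaphorin, lower, at 45.4 against 142 CPM in replicate 1 and 41.8 against 119 in replicate 2 (log2 change -1.59, SE 0.20, edgeR adjusted p = 8.4e-13). Both passed in DESeq2.

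Of the neurotrophin receptors, Ntrk2 and Ntrk3 did not pass, at log2 changes of 0.16 and 0.28. Ngfr, the p75 receptor, was lower (-0.81). Shh stood at 87.3 against 15.4 CPM in replicate 1 and 68.5 against 15.5 in replicate 2 and passed in both tools (log2 change 2.32, SE 0.29, edgeR adjusted p = 5.2e-13). Fgf13 did so too (log2 change 1.50). Of the 14 trophic genes tested, 5 were higher and 1 lower, where 5.16% and 4.4% of all genes tested were.

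Of 30 release genes tested, 7 were higher and 2 lower, where 5.16% and 4.4% of all genes tested were, and of 30 channel and receptor genes 1 was higher and 3 lower. Syt2, a fast calcium sensor of release, stood at 103 against 16.7 CPM in replicate 1 and 73.8 against 27.5 in replicate 2 and passed in both tools (log2 change 2.02, SE 0.27, edgeR adjusted p = 5.4e-12). Snap25 (0.30), Cplx1 (-0.06), Scn9a (0.01) and P2rx3 (-0.06) did not pass. Kcnip4, a potassium channel partner, was the member called higher (2.75). The glutamate receptor genes Gria3 and Grin1 were called lower (-1.18 and -1.80), as was the potassium channel Kcnq3 (-1.66). Gria3 was at -2.12 in replicate 1 alone and -0.31 in replicate 2 alone. Grin1 was at -2.93 in replicate 1 alone and -1.02 in replicate 2 alone, and did not pass without predicted doublets (edgeR adjusted p = 0.086) or without neurons holding glial or mesenchymal UMIs (edgeR adjusted p = 0.073).

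For the lists that follow, the shares over all genes tested were 5.16% higher and 4.4% lower. Counts of 1 or 2 members are not read as results about a list. Of 18 tested genes of RNA binding and splicing, 2 were higher with Neurod1 and none lower: Celf4 (0.79) and Srrm3 (0.75). Of 12 granule and neuropeptide genes, 2 were higher and 4 lower. The higher pair were Nnat (0.50), an imprinted gene of developing neurons that also passed in DESeq2, and Pcsk2 (0.53), a prohormone convertase. Vgf (-0.70), Resp18 (-0.74) and Tac1 (-2.44) were lower, as was Pcsk1n. In replicate 1 a single cell held 82.1% of the Tac1 UMIs. Of 12 genes of dissociation stress 1 was higher (Jund, 0.60) and 1 lower (Ier2, -0.68, 0.06 without predicted doublets and -0.02 without neurons holding glial or mesenchymal UMIs). Of 3 hair cell genes tested 2 were higher, Myo6 (0.99) and Ccer2 (4.43). Ccer2 was at 5.86 in replicate 1 alone and 1.79 in replicate 2 alone, and 1 cell held 26.7% of its UMIs in replicate 1. Of the remaining lists of other cells, Sparcl1 was lower (-1.42) as the 1 epithelial gene tested, neither of 2 blood genes passed, the 1 gene of other neurons tested did not pass, and no melanocyte gene was tested.

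**Figure D2:**
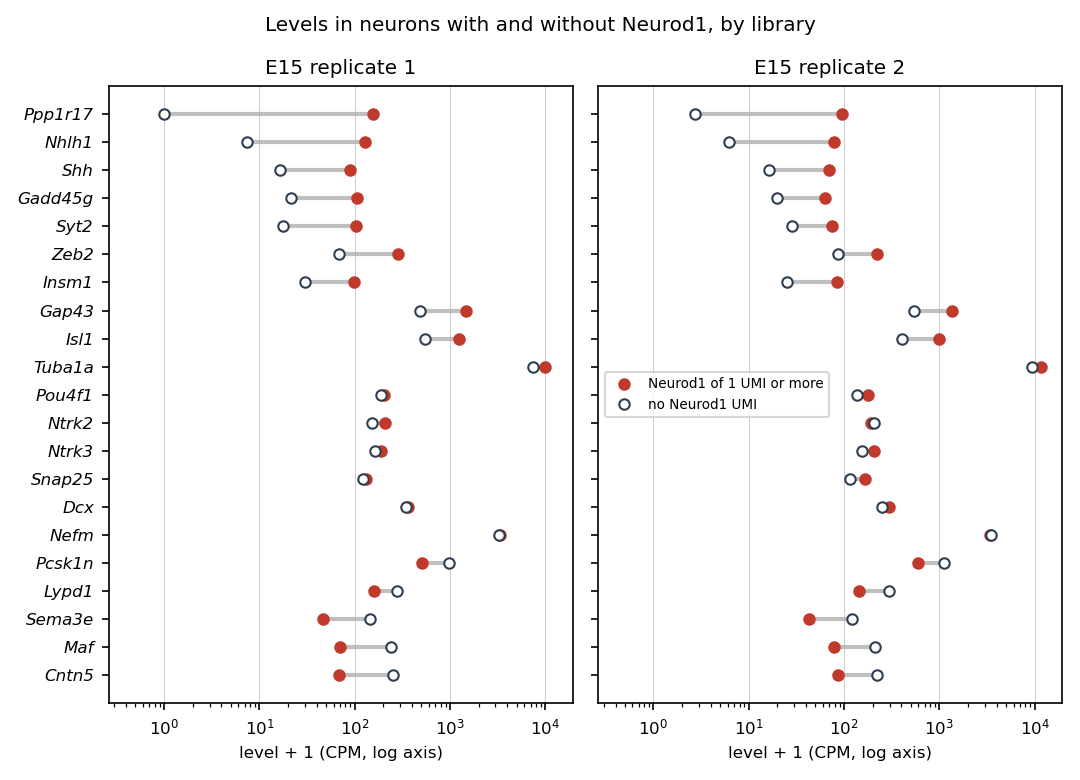
Levels of 21 genes (rows) in neurons with at least 1 Neurod1 UMI (filled) and with none (open), as CPM plus 1 on a log axis, one panel per E15 library. From Ppp1r17 to Tuba1a the filled point is the higher in both panels, from Pou4f1 to Nefm the genes did not pass the test, and from Pcsk1n to Cntn5 the open point is the higher.

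Other genes were lower in neurons with Neurod1. Maf, a basic leucine zipper factor, stood at 69.3 against 238 CPM in replicate 1 and 76.5 against 208 in replicate 2 (log2 change -1.63, SE 0.17, edgeR adjusted p = 3.6e-20). Cntn5, an adhesion protein of axons, stood at 68.1 against 252 CPM in replicate 1 and 86.2 against 222 in replicate 2 (log2 change -1.63, SE 0.16, edgeR adjusted p = 6.1e-21). Pcsk1n, a granule protein that inhibits a prohormone convertase, stood at 503 against 963 CPM in replicate 1 and 593 against 1124 in replicate 2 (log2 change -0.95, SE 0.09, edgeR adjusted p = 8.4e-21). All 3 passed in DESeq2. The rule for naming also gave Arpp21, Igfbp5, Fabp3 and Vkorc1, with log2 changes of -1.65, -1.50, -1.59 and -1.45, the first pair of them in both tools.

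Of 11 genes that mark spiral ganglion subtypes in the adult, 2 were higher with Neurod1 and 5 lower. Among all genes tested the shares were 5.16% and 4.4%. Lypd1 was lower at 158 against 279 CPM in replicate 1 and 144 against 294 in replicate 2 (log2 change -0.95, SE 0.14, edgeR adjusted p = 2.3e-09). Calb1, a calcium-binding protein of type IB neurons, was higher (0.80), as was Prox1 (1.96). Of Lypd1, Calb1 and Prox1, Lypd1 passed in DESeq2. Prph, a marker of type II neurons, was called lower at -0.86, but its libraries disagreed, at 12 against 67.9 CPM in replicate 1 and 53.3 against 46.5 in replicate 2. It was detected in 21% and 18.9% of the neurons.

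Some RNA of other cells differed with this split. The mesenchymal markers summed to 86.1 and 56 CPM in neurons with Neurod1 and to 135 and 299.6 in those without. Of 4 tested, 4 were called lower with Neurod1 (Col3a1, Twist1, Tbx18 and Pou3f4), where 4.4% of all genes tested were. The counts of mesenchymal and glial genes called rest on few genes and are not read as results about a list. Without predicted doublets Pou3f4 did not pass and the other 3 had too few UMIs to be tested. Col3a1 was at -0.69 in replicate 1 alone and -4.34 in replicate 2 alone, Tbx18 at -3.04 in replicate 1 alone and -1.44 in replicate 2 alone and Pou3f4 at -0.69 in replicate 1 alone and -2.01 in replicate 2 alone. The glial markers summed to 482 and 329 CPM with Neurod1 and 302 and 911 without, so the libraries disagreed; 2 of 5 glial genes tested were called lower, Fabp7 (247 against 99.9 CPM in replicate 1 and 183 against 579 in replicate 2) and Ngfr, which neurons also express. On the log2 scale Fabp7 was at -0.49, and at 0.39 without the neurons that held 3 or more glial or mesenchymal UMIs. When the 17 neurons with at least 3 UMIs of glial or of mesenchymal markers were left out, a choice made after the data were seen, 697 genes were called and 607 of the 797 were called in the same direction. Cntn5 was then at -1.56 and Nhlh1 at 3.92 on the log2 scale. The growth factor Mdk and the otic mesenchyme factor Pou3f4, which the rule for naming gave among the falls (-1.64 and -1.47), no longer passed, at -0.11 and -0.52. Mdk was at -2.26 in replicate 1 alone and -1.23 in replicate 2 alone.

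Levels were also set against the amount of Neurod1. Neurons fell in 3 classes, with 0 UMIs (38 and 35 cells in the 2 libraries), 1 to 4 (19 and 41) and 5 or more (24 and 30), and levels are given in this order, as a description. Cntn5 was at 252, 159 and 2.07 CPM in replicate 1 and 222, 139 and 10.8 CPM in replicate 2, and Maf at 238, 150.2 and 10.3 CPM in replicate 1 and 208, 122 and 10.8 CPM in replicate 2. Both were thus lowest in the class with the most Neurod1, in both libraries. For Gap43 the levels were 479, 845 and 1899 CPM in replicate 1 and 546, 906 and 1997 CPM in replicate 2, and for Isl1 542, 669 and 1639 CPM in replicate 1 and 399, 627 and 1523 CPM in replicate 2. Ppp1r17 was at 0, 5.67 and 260.4 CPM in replicate 1 and 1.72, 10.6 and 212 CPM in replicate 2, so nearly all of its RNA was in the class with 5 or more. The cells of that class were not deeper, with medians of 18137.5 and 13858 UMIs over the shared genes, against 22211.5 and 16822 in cells without Neurod1. Lypd1 did not follow steps in both libraries: it was at 279, 354 and 14.5 CPM in replicate 1 and 294, 222 and 32.5 CPM in replicate 2. Gata3 was at 532, 646 and 327 CPM in replicate 1 and 487, 463 and 223 CPM in replicate 2. Runx1 was at 118, 116 and 59.9 CPM in replicate 1 and 87.8, 139 and 43.3 CPM in replicate 2. Gata3 and Runx1 were thus lowest in the class with 5 or more, in both libraries. Pou4f1 stayed between 134 and 218 CPM in all classes.

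**Figure D3:**
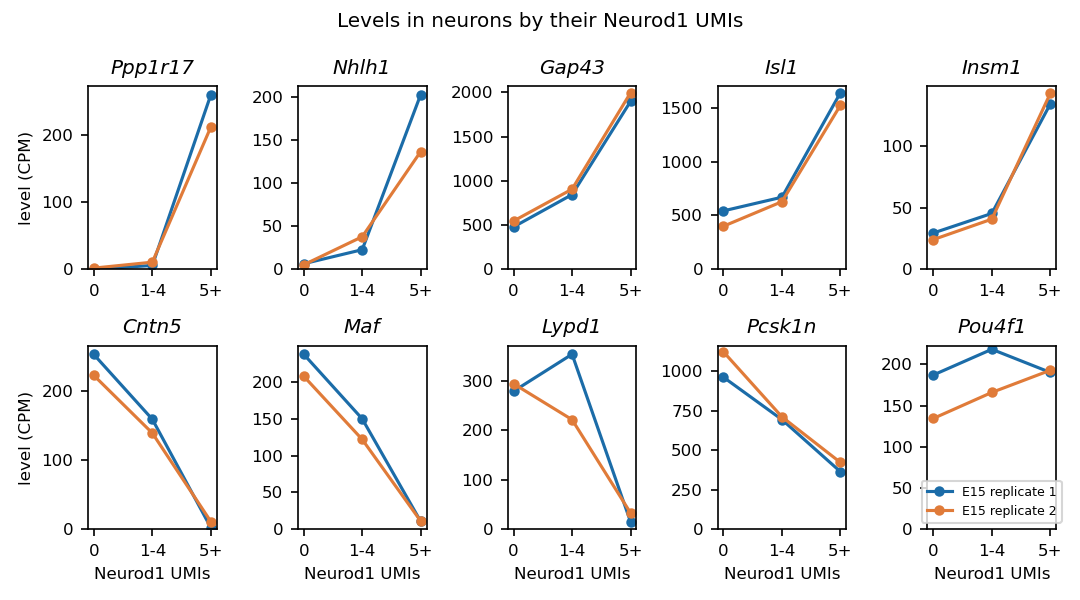
Levels of 10 genes in CPM (vertical axes, each from 0) in E15 neurons grouped by their Neurod1 UMIs (horizontal axis), with 1 line per library. Ppp1r17, Nhlh1, Gap43, Isl1 and Insm1 are highest at 5 or more Neurod1 UMIs, and Cntn5, Maf, Lypd1 and Pcsk1n are lowest there in both libraries.

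In cells without Neurod1, Nhlh1 was detected in 5 of 38 and 2 of 35, against 27 of 43 and 35 of 71 of those with it.

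The region upstream of the genes that moved was read for the E-box that NEUROD1 binds in other tissues. The letters searched were CAGATG, which is CATCTG on the other strand, in the 250 bases before the start of transcription. The windows are from RefSeq on build GRCm38.p6 and are printed 5′ to 3′ on the strand of the gene, with the match in capitals. They show Neurod1 itself, and Nhlh1 and Ppp1r14a as genes higher with Neurod1 that hold a match.
Neurod1 (chr2:79456637-79456886, minus strand): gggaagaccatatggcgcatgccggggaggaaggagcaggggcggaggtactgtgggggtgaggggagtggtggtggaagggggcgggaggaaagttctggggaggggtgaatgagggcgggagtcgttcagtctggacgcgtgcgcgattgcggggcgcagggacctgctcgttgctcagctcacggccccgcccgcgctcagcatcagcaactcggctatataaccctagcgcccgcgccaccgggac
Nhlh1 (chr1:172057597-172057846, minus strand): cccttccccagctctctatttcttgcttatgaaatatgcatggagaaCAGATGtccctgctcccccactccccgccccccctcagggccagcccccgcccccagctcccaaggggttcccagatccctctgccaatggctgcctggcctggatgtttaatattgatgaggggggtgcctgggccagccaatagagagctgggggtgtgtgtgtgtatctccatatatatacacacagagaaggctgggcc
Ppp1r14a (chr7:29289070-29289319, plus strand): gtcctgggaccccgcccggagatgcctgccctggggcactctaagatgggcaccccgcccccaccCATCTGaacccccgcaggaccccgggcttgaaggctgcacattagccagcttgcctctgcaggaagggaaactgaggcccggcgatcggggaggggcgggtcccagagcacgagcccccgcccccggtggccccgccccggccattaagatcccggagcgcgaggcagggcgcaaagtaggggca
The window of Neurod1 holds no match, and the windows of Nhlh1 and Ppp1r14a 1 each, starting 203 and 185 bases before the start. A match was present in 14.4% of all 32851 windows in the table and in 9.28% of the 8683 windows of genes tested. Of the genes named by rank, 2 of 6 with a window in the table among the rises held a match, and 1 of 7 among the falls, which was Arpp21 in 2 of its windows. The share was 11.0% of 455 windows of genes higher with Neurod1 and 12.6% of 365 windows of genes lower. A match is a description of these letters and not a binding site.

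The same rule found 17 cells in the P7 library, 0.234% of 7262, against which the E15 neurons were compared. At P7 Neurod1 was at 12.8 CPM, with 10 UMIs in 7 of the 17 cells. These cells were deeper, with a median of 55768 UMIs. They were also less clean: 10 of 17 had at least 3 UMIs of glial markers and 11 at least 3 of mesenchymal markers, and their glial marker sum was 4678 CPM. There is 1 P7 library, the software version in its header differs from that of the E15 files, and age cannot be told apart from either. Of 10733 genes tested in edgeR, 3421 (31.9%) passed an adjusted p under 0.05 with a fold of at least 2: 1709 higher at E15 (15.9%) and 1712 lower (16%). The single P7 library gives no spread of its own: the test takes it to vary as the 2 E15 libraries do, which may differ only technically, so its p-values do not measure spread between P7 samples. DESeq2 called 1504, of which 1496 were called by both. Changes are given as E15 over P7.

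Early factors were higher at E15. Of 35 differentiation factors tested, 22 were higher and 4 lower, with a median log2 change of 1.72 against 0.05 over all genes. Among all genes tested, 15.9% were higher and 16% lower. Sox11 stood at 1123 and 1109 CPM in the E15 replicates and 61.5 at P7 (log2 change 4.02, SE 0.20, edgeR adjusted p = 7.1e-87). Isl1 stood at 898 and 792 CPM in the E15 replicates and 365 at P7 (log2 change 1.05, SE 0.15, edgeR adjusted p = 5.2e-12). It no longer passed without the cells that held glial or mesenchymal RNA, at 0.36 (edgeR adjusted p = 0.091). Gata3 stood at 495 and 406 CPM in the E15 replicates and 123 at P7 (log2 change 1.72, SE 0.17, edgeR adjusted p = 6.3e-22). Insm1 and Nhlh1 had no UMI in the P7 cells, so that E15 levels were at least 16.5-fold and 15.8-fold higher against a floor of 3 UMIs over the P7 cells. The lower members included Prox1 (-2.28), Lmo1 (-1.88) and Sox2 (-1.92). Sox2 did not pass in DESeq2 and is also a glial gene.

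Growth genes were higher at E15, with 20 of 42 axon genes called higher and 6 lower. The shares over all genes tested were 15.9% higher and 16% lower. Gap43 stood at 984 and 1079 CPM in the E15 replicates and 163 at P7 (log2 change 2.51, SE 0.17, edgeR adjusted p = 1.5e-48), Dcx at 357 and 281 CPM in the E15 replicates and 23.1 at P7 (log2 change 3.63, SE 0.25, edgeR adjusted p = 8.0e-45), and Stmn1 at 7024 and 7635 CPM in the E15 replicates and 695 at P7 (log2 change 3.24, SE 0.16, edgeR adjusted p = 5.6e-85). Nefh was lower at E15, at 30.3 and 30.5 CPM in the E15 replicates and 1848 at P7 (log2 change -6.08, SE 0.15, edgeR adjusted p = 3.8e-311), while Nefm did not pass. Of 34 guidance genes, 16 were higher at E15 and 6 lower, with Epha5 at 2.95 on the log2 scale. Of 21 cell cycle genes tested, 16 were higher at E15 and none lower, and 4 were higher in DESeq2. Without predicted doublets 9 could be tested and 3 were higher, and without cells holding glial or mesenchymal UMIs, which left 6 at P7, 7 could be tested and none was called.

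Genes of transmission and firing were lower at E15. Of 35 release genes tested, 18 were lower and 5 higher, and of 41 channel and receptor genes 21 were lower and 9 higher. Over all genes tested, 16% were lower and 15.9% higher. Snap25 stood at 127 and 147 CPM in the E15 replicates and 1267 at P7 (log2 change -3.37, SE 0.13, edgeR adjusted p = 3.7e-138), Cplx1 at 61.8 and 55.7 CPM in the E15 replicates and 818 at P7 (log2 change -3.96, SE 0.14, edgeR adjusted p = 9.1e-157), and Slc17a7 at 7.42 and 5.86 CPM in the E15 replicates and 233 at P7 (log2 change -5.27, SE 0.25, edgeR adjusted p = 5.1e-93). The sodium pump subunit Atp1b1 stood at 105 and 82.1 CPM in the E15 replicates and 2084 at P7 (log2 change -4.63, SE 0.14, edgeR adjusted p = 3.9e-236). The potassium channels Kcnc1 and Kcna1 were lower too, with log2 changes of -2.95 for Kcnc1 and -2.90 for Kcna1. Within the sodium channels members went both ways. Scn1a was lower at E15 (4.33 and 2.93 CPM in the E15 replicates and 199.8 at P7), and Scn3a and Scn9a were higher (1.78 and 1.83). The ATP-gated channel P2rx3 was higher at E15 (2.15).

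Other lists had members called in both directions. Over all genes tested, 15.9% were higher at E15 and 16% lower. Several counts below lie near these shares or rest on few genes, and are not read as results about a list. Of 14 trophic genes tested, 6 were higher at E15 and 1 lower. Ntrk2 and Ntrk3 did not pass, at 0.09 and -0.42. Of 18 genes of Notch signalling and cell cycle exit, 4 were higher and 3 lower: the cell cycle inhibitor Cdkn1c was higher at E15 (512 and 504 CPM in the E15 replicates and 15.4 at P7) and Cdkn1b lower (-1.35). Of 19 RNA binding genes, 10 were higher at E15 and 4 lower. Celf3 and Srrm4 were higher (3.97 and 2.12), and the splicing factors Rbfox1 and Rbfox3 lower (-2.58 and -2.01). Of 14 granule genes 4 were higher and 5 lower, with Nnat at 1073 and 1202 CPM in the E15 replicates and 39.7 at P7 and Resp18 at 111 and 101 CPM in the E15 replicates and 424 at P7. Of 16 subtype genes 4 were higher and 7 lower. Lypd1 was lower at E15 (216 and 195 CPM in the E15 replicates and 762 at P7) and Calb1 higher (1.57). Among markers of other cells, 4 of 10 glial genes were lower at E15 and 1 was higher. Of 7 mesenchymal genes 3 were higher and 2 lower, of 6 hair cell genes 2 and 2, and of 5 epithelial genes 1 and 2. Of 4 blood genes and 2 of other neurons 1 each was higher and none lower, and no melanocyte gene was tested. Of 15 stress genes 2 were higher and 4 lower.

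**Figure D4:**
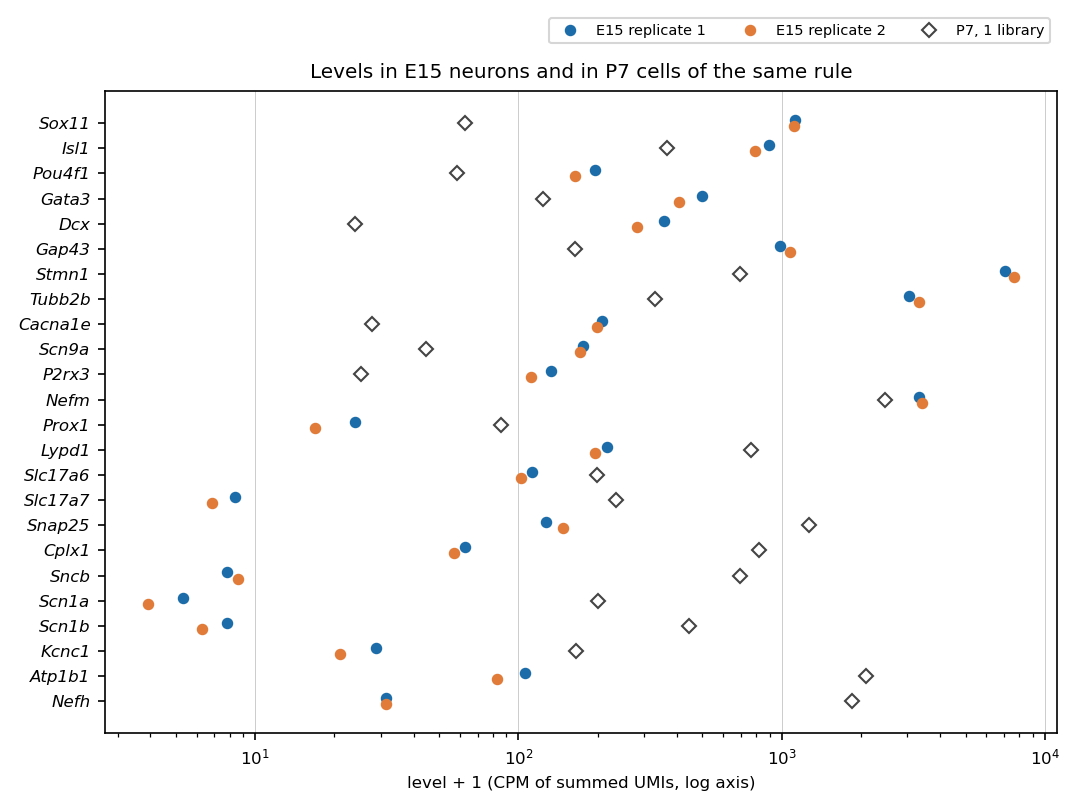
Levels of 24 genes (rows) in the E15 neurons of each library (circles) and in the 17 P7 cells of the same rule (diamonds, 1 library), as CPM plus 1 on a log axis. The early factors and growth genes at the top are higher at E15, and the release, channel and neurofilament genes from Slc17a6 down are higher at P7. Slc17a6 fell short of the fold minimum without predicted doublets, at -0.96.

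Outside the lists, the rule for naming gave 10 genes on each side. Vcan, Mfap4, St8sia2, Ppp1r17, Hist1h3e, Gpc2 and Insm1 led at E15 with no UMI in the P7 cells, at least 39.8-fold higher for Vcan, an extracellular proteoglycan, and 34.3-fold for St8sia2, which adds polysialic acid to NCAM. Rnasek, Mrpl53 and Nutf2-ps1 were named too, but the whole P7 library of 7262 cells held 36, 26 and 44 of their UMIs, and age cannot be told apart from the counting software there. On the P7 side Calb2 stood at 3232 CPM, against its 3 UMIs in all E15 neurons. Thy1, a surface protein of grown neurons, was at 0 in both E15 replicates and at 231 CPM at P7, at least 255-fold higher. Lynx1, a modulator of nicotinic receptors, and Car10 were named as well, and stood at 3.87 and 0.497 CPM in the P7 glial cells. The others were Mal, Prx, Bcas1, Gpr37l1, Mt2 and Igfbp6, of which Mal and Prx belong to myelin. These 6 were at 79.6 to 960.3 CPM in P7 glial cells, and without the cells holding 3 glial or mesenchymal UMIs all 6 had too few UMIs to be tested.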

How the data were processed

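Single cells of whole cochleae were profiled with a 3′ droplet kit. The authors deposited unnormalized UMI counts for every gene in every barcode, made with Cell Ranger 6.1.2 on GRCm38 per the submitters' processing notes; per the file headers the version was 6.1.2 for E15 and 3.1.0 for P7. How barcodes were called as cells is not given in the sources used here. Each barcode total was at least 500 UMIs. Only the 27734 Ensembl IDs shared by all libraries were used (99.3% of E15 and 99.9% of P7 UMIs). Cells needed at least 500 genes and at most 20% mitochondrial UMIs. Predicted doublets (Scrublet in scanpy 1.11.5; the automatic threshold marked 7, 4 and 3 cells of E15 replicate 1, replicate 2 and P7) were kept, and removing the highest scores (76, 117 and 433 cells) was an alternative.

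UMIs were summed per library and class and tested in edgeR 4.0.16 (R 4.3.3, TMM, low counts filtered, quasi-likelihood), with DESeq2 1.42.0 as an alternative. Benjamini-Hochberg adjustment in edgeR covered all genes tested. DESeq2 gave no adjusted p for 4204 genes in the Neurod1 comparison and 417 in E15 against P7, and these count as not called. The fits have 1 residual degree of freedom. The log2 change and its SE are fitted; a fold against a class at 0 uses a floor of 3 UMIs. Shares carry exact (Clopper-Pearson) 95% intervals, which cover counting error only. On simulated counts for the Neurod1 comparison, 92% of genes changed 4-fold and 37% changed 2-fold were recovered, and 0 unchanged genes were called. For E15 against P7 the shares were 81% and 32%, with 3 unchanged genes called. The simulated counts had 1 spread for all genes, taken from the same edgeR fit, and were called with no fold minimum. They therefore do not show how often real genes are called wrongly.

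The members, gene lists and naming rule were chosen with earlier results of these data known. Named genes are members of 20 lists, up to 10 rises and 10 falls per test with at least 50 CPM in the higher group, and the 20 genes with the largest fold over glial and mesenchymal cells with at least 100 CPM; mitochondrial, ribosomal, haemoglobin, sex-linked and unnamed genes were left out, and some other genes are not reported here. Versions were Python 3.11.15, numpy 2.4.6, scipy 1.17.1, pandas 2.3.3 and matplotlib 3.10.9.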

Additional observations from a re-analysis of the deposited data

How the results depend on the processing

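The number of genes called between neurons with and without Neurod1 was 797. It was 71 with DESeq2, 276 after thinning to 5000 UMIs with a new split, and 322 with a fold of at least 2 required. It was 715 with no filter on low counts, 1034 with at least 2 Neurod1 UMIs against 0, 664 without predicted doublets, 823 with at most 10% mitochondrial UMIs, 871 with stricter neuron thresholds and 697 without neurons that held glial or mesenchymal RNA. The library is the pairing in this fit, since both groups come from the same library, and with no replicate block 535 genes were called, all of them among the 797. Over 8340 genes, deviations of replicate 1 from the group means correlated with r = 0.0228 between the 2 groups, so little shared library effect was seen. The pooled spread (common dispersion) was 0.00436 with the block and 0.00776 without it. The E15 and P7 libraries share no pairing.

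The number called between E15 and P7 was 3421, 1504 with DESeq2, and between 2421 and 4839 under the other alternatives. After thinning, the share of neurons with Neurod1 was 43.4% in E15 replicate 2 and 11.8% at P7. The share of cells that met the neuron rule stayed within its interval under the other limits. Leaving out a library leaves no spread to test, so single genes are given as values: Prph was at -2.42 and 0.19 in the 2 E15 libraries alone. Hmgb2 turned to 0.13 without predicted doublets and 0.0583 without neurons that held glial or mesenchymal RNA. Fabp7 turned to 0.47 with stricter neuron thresholds and 0.39 without those neurons, and was at 1.30 in replicate 1 alone and -1.65 in replicate 2 alone. Ier2 turned to 0.0635 without predicted doublets. Of 69 named genes called in this comparison, 21 moved by over 1.5-fold in 1 library alone. The other genes named kept their direction wherever they were called. Causes were not tested. Depth limits genes under about 10 CPM, which rest on few UMIs.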
